A study of Mus musculus with 6 samples.

Results

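Interferon-stimulated genes are transcribed when a cell receives an interferon signal, and their products block virus replication, sense foreign nucleic acid and present antigen. A list of 39 such mouse genes, named for that function, was followed here in embryonic samples with and without Sp3. The list was chosen with earlier results of these data known. For each gene the probe set of highest mean intensity was taken, among those annotated to that gene alone, which gave values for 37 of the 39 genes, out of 18193 genes measured. The 37 genes had 60 probe sets between them. Isg15, a ubiquitin-like modifier, had only a probe set annotated to several genes and was given no value, and Ifi44 had no probe set named here.

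The series set Sp3 knockout samples against wildtype samples, all labelled as mouse heart at stage E12.5. Sp3 is a DNA-binding protein with zinc fingers that recognises GC boxes in promoters. Of the 6 arrays, 3 were Sp3 knockout and 3 wildtype, lettered a to c in each genotype. The total RNA of each is described as coming from a single heart, with biotin as the label. The extraction note of knockout a has the word in the plural, where the other 5 notes have it in the singular. The allele, the strain, the sex and the litters are not given in the sources used here. Values below are log2 intensities in the order a, b, c, and a difference is the knockout mean minus the wildtype mean on the log2 scale.

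As background, type I interferons bind the receptor chains Ifnar1 and Ifnar2, which activate the kinases Jak1 and Tyk2. These phosphorylate STAT proteins, and a complex that contains Stat2 and Irf9 then binds a DNA element called the interferon-stimulated response element, or ISRE, near the start of target genes. Many targets, among them Irf7, Stat2 and Irf9, feed back on the pathway, so that it amplifies its own signal.

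The label check and the make-up of the samples bear on all values. Sp3 was at 8.39, 8.34 and 8.61 in the knockout arrays, against 9.87, 9.77 and 9.54 in the wildtype arrays, with no overlap and a limma adjusted p of 0.00254. Whether its probes fall inside the removed sequence is not given. Median intensity ran from 22.5 to 26.7 over the 6 arrays. Liver and red cell transcripts were among the brightest in every array, although the label is heart, with the median gene of a hepatocyte list at percentile 99.5 of all genes and that of an erythroid list at 98.2. The median of 13 measured cardiomyocyte markers was at percentile 41.8. Probe sets differ in brightness for the same amount of RNA, so these percentiles describe whole lists. In RNA from whole tissue, fewer cells of a type and less RNA per cell cannot be told apart.

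The promoters were searched for the letters of the element that the Stat2 and Irf9 complex binds. RefSeq promoters of GRCm38.p6, from 250 bases before to 50 bases after the start, were at hand for 27 of the 37 members. An ISRE was searched as GAAA, any 2 bases, then GAAA, on either strand. It was found for 13 of the 27 members, which is 48.1%, against 3.99% of all 27025 genes with a promoter and 3.44% of all 32851 promoters. The 13 were Ifit1, Ifit3, Oas1a, Oas3, Ifih1, Gbp2, Gbp3, Bst2, Trim30a, Rsad2, Eif2ak2, Stat2 and Ifi203. Below, Ifit3, Ifit1, Oas1a and Ifih1 are shown as members with a match and wide differences between arrays, and Ifi203 and Ifit2 for contrast as the members of narrowest range among those with a promoter, Ifi203 with a match and Ifit2 with none. All are printed 5′ to 3′ along the gene's strand, and capitals mark the ISRE matches, which read TTTC, 2 bases, TTTC where they lie on the other strand.
Ifit3: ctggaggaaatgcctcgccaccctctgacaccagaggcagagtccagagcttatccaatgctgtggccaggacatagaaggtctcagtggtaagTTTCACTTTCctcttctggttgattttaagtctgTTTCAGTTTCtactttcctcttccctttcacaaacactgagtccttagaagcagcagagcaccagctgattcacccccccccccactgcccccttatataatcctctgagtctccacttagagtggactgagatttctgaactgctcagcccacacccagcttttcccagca
Ifit1: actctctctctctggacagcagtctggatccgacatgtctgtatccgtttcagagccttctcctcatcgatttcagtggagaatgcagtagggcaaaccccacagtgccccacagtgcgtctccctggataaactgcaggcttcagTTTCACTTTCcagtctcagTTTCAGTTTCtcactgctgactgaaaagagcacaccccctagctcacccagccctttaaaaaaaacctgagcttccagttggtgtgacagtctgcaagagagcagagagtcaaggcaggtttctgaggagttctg
Oas1a: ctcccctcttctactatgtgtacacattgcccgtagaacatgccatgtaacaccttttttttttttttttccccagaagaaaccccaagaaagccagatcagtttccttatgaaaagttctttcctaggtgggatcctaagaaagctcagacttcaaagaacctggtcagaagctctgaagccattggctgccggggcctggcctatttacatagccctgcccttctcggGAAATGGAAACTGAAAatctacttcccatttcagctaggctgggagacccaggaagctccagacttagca
Ifih1: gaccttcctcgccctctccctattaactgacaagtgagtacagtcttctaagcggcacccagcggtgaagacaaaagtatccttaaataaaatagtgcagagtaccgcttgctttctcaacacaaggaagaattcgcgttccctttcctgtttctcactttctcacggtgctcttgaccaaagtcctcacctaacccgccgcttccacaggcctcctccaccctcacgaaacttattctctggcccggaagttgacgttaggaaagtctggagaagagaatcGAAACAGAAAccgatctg
Ifi203: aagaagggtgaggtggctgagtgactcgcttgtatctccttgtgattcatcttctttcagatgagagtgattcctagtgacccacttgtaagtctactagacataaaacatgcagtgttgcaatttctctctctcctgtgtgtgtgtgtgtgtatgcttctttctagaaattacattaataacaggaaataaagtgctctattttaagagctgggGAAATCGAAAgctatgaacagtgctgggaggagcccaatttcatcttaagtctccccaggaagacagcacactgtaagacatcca
Ifit2: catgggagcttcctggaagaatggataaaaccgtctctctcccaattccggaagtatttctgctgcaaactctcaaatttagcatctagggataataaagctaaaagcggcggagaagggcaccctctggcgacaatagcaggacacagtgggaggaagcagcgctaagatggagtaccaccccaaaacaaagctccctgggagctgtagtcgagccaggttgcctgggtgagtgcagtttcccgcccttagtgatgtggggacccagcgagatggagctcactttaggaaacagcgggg
These windows lie at chr19:34583279-34583578 on the plus strand for Ifit3, chr19:34640639-34640938 on the plus strand for Ifit1 and chr5:120907476-120907775 on the minus strand for Oas1a. The others lie at chr2:62646206-62646505 on the minus strand for Ifih1, chr1:173942443-173942742 on the minus strand for Ifi203 and chr19:34550444-34550743 on the plus strand for Ifit2. Ifit3 has matches that begin 156 and 122 bases before the start, and Ifit1 at 104 and 85 bases before it. Oas1a has overlapping matches at 20 and 14 bases before the start, Ifi203 has a single match at 35 bases before it, and the match of Ifih1 begins at base 33 of the transcript. Ifi203 and Ifit2 each have 2 promoters in the table, of which 1 is printed. A GC box, the letters GGGCGG on either strand and a kind of element that Sp factors bind, was found for 8 of the 27 members, 29.6%, against 38.2% of all genes with a promoter and 35.7% of all promoters. In 2 members both motifs were found, and in no promoter did they share a base. A match is a stretch of letters and not a measured site.

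Across the members, 3 arrays stood above the rest whatever their genotype: knockout b, wildtype a and wildtype b. These arrays were named, and the members chosen, with earlier results of these data known, so what follows is a description and not a test. In 29 of the 37 members those 3 arrays were the highest, against 7.77% of all genes. In 17 members the lowest of the 3 was more than 1 log2 unit above the highest of the other arrays, against 0.456% of all genes. Knockout b was the highest array for 26 members, wildtype b for 6, wildtype a for 4 and knockout c for 1. The lowest array was knockout c for 15 members, wildtype c for 12 and knockout a for 10.

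Averaged over the 37 members, the deviation from each gene's mean was -0.97 in knockout a, 1.15 in knockout b and -0.88 in knockout c, against 0.65 in wildtype a, 0.90 in wildtype b and -0.85 in wildtype c. The SD of these list levels was 1.20 among knockout arrays and 0.95 among wildtype arrays, while the genotype means were -0.23 and 0.23. The spread within a genotype was therefore larger than the distance between the genotypes.

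**Figure D1:**
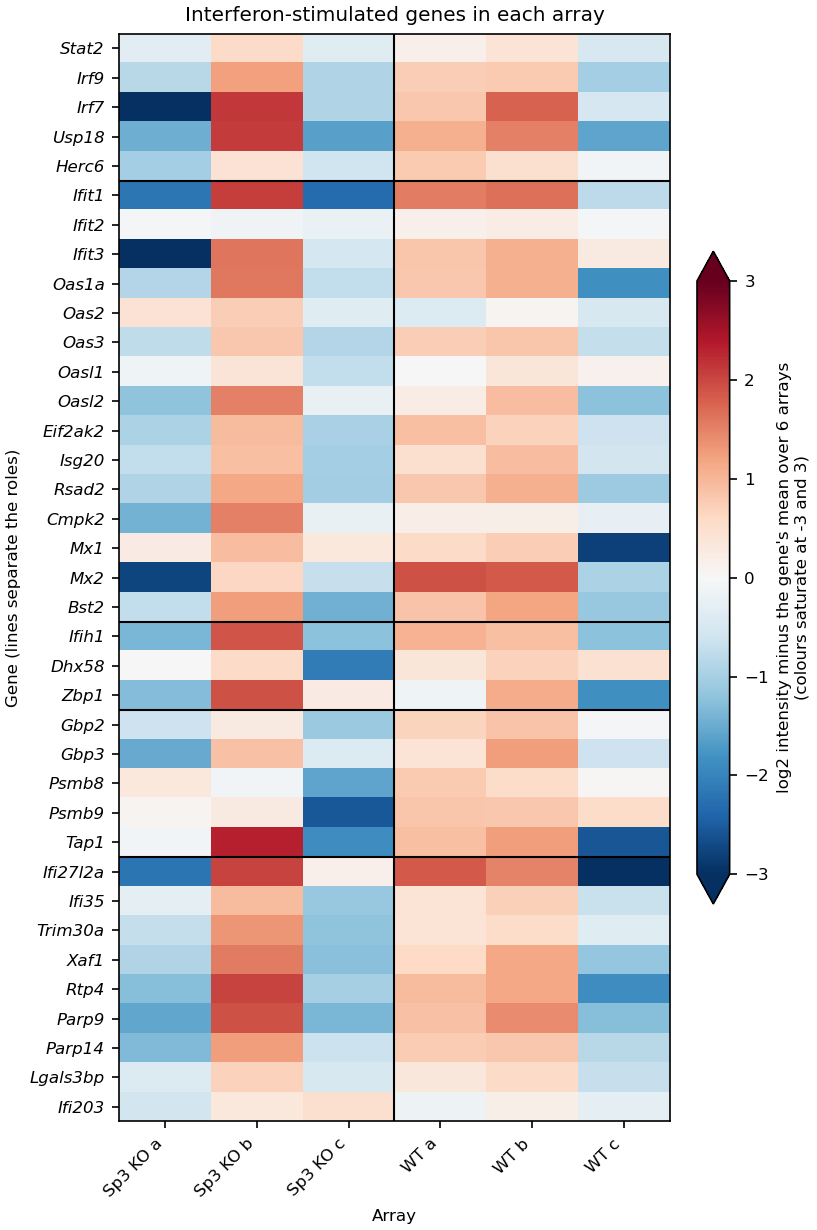
Each line is 1 of 37 interferon-stimulated genes and each column 1 array, coloured by log2 intensity minus the gene's mean over the 6 arrays; black lines separate the roles and the genotypes. Knockout b, wildtype a and wildtype b are red for most genes and knockout a, knockout c and wildtype c blue, with 29 of 37 genes having those 3 arrays highest.

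Among the genes that carry and limit the signal, all 5 measured members had knockout b, wildtype a and wildtype b highest. Usp18, the protease that removes Isg15 from proteins and also restrains the interferon receptor, was at 5.29, 8.86 and 5.13 in knockout, against 7.82, 8.27 and 5.17 in wildtype. Its 3 high arrays lay 2.53 above the other 3, the widest such distance of any member, and its highest array was 13.2 times its lowest on the linear scale. The difference was -0.66, with a 95% interval from -4.77 to 3.45 and a limma adjusted p of 0.943.

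Irf7, the transcription factor that drives interferon alpha genes, was at 2.17, 7.57 and 4.57 in knockout, against 6.27, 7.23 and 4.97 in wildtype. Knockout a was the lowest, and the range of 5.41 log2 units, 42.4 times on the linear scale, was the widest of all members. Irf9, the DNA-binding part of the complex, was at 6.92, 8.99 and 6.86 in knockout, against 8.49, 8.55 and 6.73 in wildtype. Stat2, its partner, was at 5.28, 6.18 and 5.23 in knockout, against 5.75, 6.02 and 5.11 in wildtype, the same order of arrays over a range of 1.06. Its promoter holds an ISRE match, and that of Irf9 does not. Irf7 differed by -1.38, Irf9 by -0.33 and Stat2 by -0.067, with limma adjusted p-values of 0.872, 0.951 and 0.973.

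Herc6, the ligase that attaches Isg15 to proteins in mouse, was at 4.65, 6.09 and 5.06 in knockout, against 6.46, 6.13 and 5.58 in wildtype. Knockout b lay among the wildtype arrays and the other knockout arrays below all of them. The difference was -0.79, with an interval from -1.58 to -0.005 and a limma adjusted p of 0.697.

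Ifit1 binds RNA whose cap lacks host marks, Ifit2 and Ifit3 are relatives that act with it, and the 3 genes did not share 1 order of arrays. Ifit1 was at 2.08, 6.31 and 1.93 in knockout, against 5.78, 5.91 and 3.47 in wildtype. Ifit3 was at 1.22, 6.10 and 3.96 in knockout, against 5.33, 5.56 and 4.76 in wildtype. Both had the same 3 arrays highest, with Ifit1 separated from the rest by 2.31 and Ifit3 by 0.57. Ifit2, the neighbour of Ifit3 on chromosome 19, was at 5.93, 5.87 and 5.77 in knockout, against 6.11, 6.19 and 5.92 in wildtype. Its range of 0.42 was the narrowest of all members, and knockout b lay below knockout a. Ifit1 differed by -1.61, Ifit3 by -1.46 and Ifit2 by -0.22, with limma adjusted p-values of 0.819, 0.811 and 0.837.

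Oligoadenylate synthetases make a short messenger on double-stranded RNA that switches on RNase L. Oas1a was at 5.39, 7.85 and 5.55 in knockout, against 7.07, 7.34 and 4.44 in wildtype. Oas3 was at 2.49, 4.06 and 2.37 in knockout, against 4.01, 4.09 and 2.54 in wildtype. Oasl2, a related protein, was at 3.94, 6.64 and 4.92 in knockout, against 5.35, 6.07 and 3.91 in wildtype. In these 3 genes knockout b, wildtype a and wildtype b were the highest arrays, though for Oasl2 wildtype a exceeded knockout c by only 0.44. Oas2, next to Oas3 on chromosome 5, was at 5.06, 5.36 and 4.27 in knockout, against 4.23, 4.71 and 4.14 in wildtype, with knockout a and knockout b highest. Oasl1, which restrains Irf7 translation in mouse, was at 4.35, 4.86 and 3.74 in knockout, against 4.47, 4.85 and 4.62 in wildtype, a range of 1.12. The genotype difference was -0.026 for Oas1a, -0.57 for Oas3, 0.055 for Oasl2, 0.54 for Oas2 and -0.33 for Oasl1, and none passed the test.

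**Figure D2:**
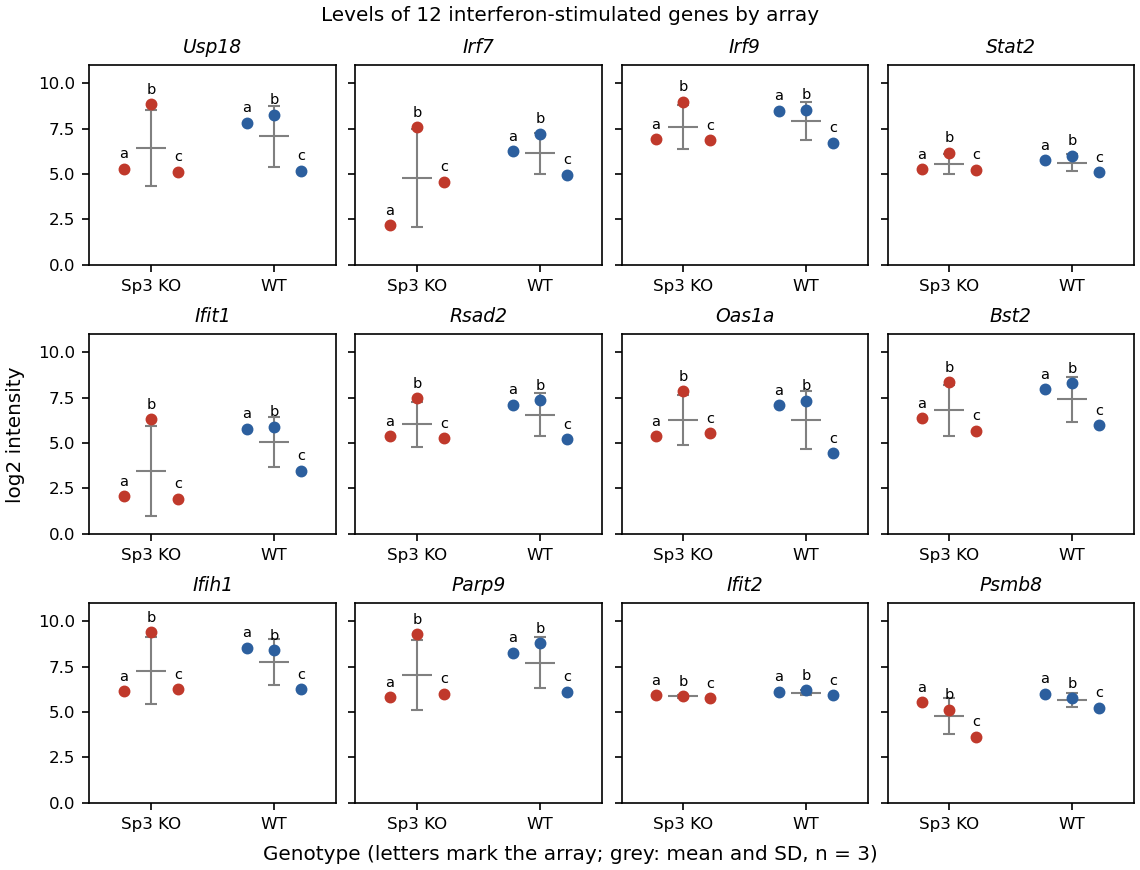
Log2 intensity of 12 members in each array, knockout in red on the left and wildtype in blue on the right of each panel, with letters for arrays and grey bars for mean and SD (n = 3). In 10 of the panels knockout b, wildtype a and wildtype b stand above the other arrays, while Ifit2 varies over 0.42 log2 units and Psmb8 has knockout c lowest.

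Enzymes that stop translation or attack viral RNA followed the same arrays. Eif2ak2, the kinase that halts translation on double-stranded RNA, was at 5.35, 7.25 and 5.32 in knockout, against 7.22, 7.0 and 5.68 in wildtype. Isg20, an RNA exonuclease, was at 5.50, 7.15 and 5.22 in knockout, against 6.71, 7.17 and 5.68 in wildtype. Each separated the 3 high arrays from the others by more than 1, at 1.32 and 1.03. Rsad2, the radical enzyme viperin, was at 5.39, 7.46 and 5.26 in knockout, against 7.10, 7.38 and 5.20 in wildtype. Cmpk2, a nucleotide kinase and the neighbour of Rsad2 on chromosome 12, was at 5.31, 8.24 and 6.49 in knockout, against 6.91, 6.91 and 6.46 in wildtype. In Rsad2 the 3 high arrays lay close together and 1.71 above the rest, whereas in Cmpk2 knockout b stood alone at the top and wildtype a and b lay 0.41 above the next array, knockout c.

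Mx1 and Mx2 encode dynamin-like GTPases that trap viral particles, and both are listed by RefSeq as transcribed pseudogenes in its mouse reference. Mx1 was at 3.87, 4.53 and 3.93 in knockout, against 4.20, 4.35 and 0.81 in wildtype, with wildtype c apart at the bottom. Mx2 was at -0.55, 2.82 and 1.51 in knockout, against 4.10, 4.03 and 1.24 in wildtype, with wildtype a and b on top. The difference was 0.99 for Mx1 and -1.87 for Mx2, the largest of any member in each direction, and the limma adjusted p-values were 0.816 and 0.751. Bst2, which tethers budding virus to the cell, was at 6.37, 8.37 and 5.68 in knockout, against 7.96, 8.29 and 5.98 in wildtype. Its high arrays lay 1.59 above the rest and its difference was -0.61. Over all 15 RNA-binding and antiviral members, 12 had knockout b, wildtype a and wildtype b highest.

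The RNA and DNA sensors differed in level, with Ifih1 at percentile 71.9 of all genes, Dhx58 at 25.1 and Zbp1 at 17.2. Ifih1, a cytosolic receptor for long double-stranded RNA, separated the same 3 arrays from the rest by 2.13, with means of 7.27 ± 1.85 in knockout hearts and 7.74 ± 1.28 in wildtype hearts (SD, n = 3 each). Dhx58, its relative without a signalling domain, averaged 2.56 ± 1.40 in knockout and 3.58 ± 0.17 in wildtype, with knockout c apart below the others. Zbp1, which detects left-handed nucleic acid and can trigger cell death, was at 1.12, 4.32 and 2.68 in knockout, against 2.28, 3.54 and 0.59 in wildtype, with knockout c above wildtype a. Of these 3 sensors, Ifih1 alone had the 3 named arrays highest, and their genotype differences of -0.48, -1.02 and 0.57 did not pass the test.

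By the probe sets used, the 2 smallest member adjusted p-values between genotypes were of a guanylate-binding protein and an antigen processing gene. Neither passed the test. Gbp2, a GTPase that acts on membranes around microbes, was at 4.69, 5.60 and 4.21 in knockout, against 5.99, 6.19 and 5.28 in wildtype. Knockout b lay above wildtype c, so the genotypes overlapped. The difference was -0.99, with an interval from -1.80 to -0.17. Its limma adjusted p of 0.658 was the smallest of any member by the probe sets used. Gbp3, a close relative with 1 gene between it and Gbp2, was at 2.88, 5.26 and 3.98 in knockout, against 4.80, 5.65 and 3.78 in wildtype, with a limma adjusted p of 0.82.

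Psmb9 and Psmb8 are the inducible catalytic subunits of the immunoproteasome, and Tap1, between them on chromosome 17, carries peptides into the endoplasmic reticulum. Psmb9 was at 4.77, 4.94 and 2.13 in knockout, against 5.51, 5.49 and 5.23 in wildtype. All 3 knockout arrays lay below all 3 wildtype arrays, with knockout c far below the rest. By the probe sets used, Psmb9 was the single member of 37 with every knockout array below every wildtype array, against 9.04% of all genes. The difference was -1.46, with an interval from -2.90 to -0.028 and a limma adjusted p of 0.695.

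Psmb8 was at 5.53, 5.13 and 3.64 in knockout, against 6.01, 5.76 and 5.25 in wildtype, again with knockout c lowest, a difference of -0.91 and a limma adjusted p of 0.708. Tap1 was at 3.01, 5.43 and 1.23 in knockout, against 3.99, 4.33 and 0.52 in wildtype. Unlike Psmb8 and Psmb9, it had wildtype c as its lowest array and the 3 named arrays as its highest, 0.98 above the rest.

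Of the other 9 members, 8 had knockout b, wildtype a and wildtype b highest. Rtp4, a chaperone of membrane receptors, was at 5.41, 8.72 and 5.69 in knockout, against 7.64, 7.84 and 4.82 in wildtype, with 1.95 between the high and the low arrays. Ifi27l2a, a small hydrophobic protein, was at 1.99, 6.22 and 4.34 in knockout, against 6.03, 5.68 and 0.88 in wildtype, and knockout b, wildtype a and wildtype b were again on top, over a range of 5.34. Parp9 and Parp14, ADP-ribosyltransferase family members with 1 gene between them on chromosome 16, separated the same arrays by 2.16 and 1.40. Xaf1, a pro-apoptotic protein, separated them by 1.49. Trim30a, a regulator of Toll-like receptor signalling, Ifi35, an adaptor that binds other induced proteins, and Lgals3bp, a secreted glycoprotein, kept the order at distances of 0.79, 0.68 and 0.75. Ifi203, of the family with DNA-binding HIN domains, averaged 4.49 ± 0.54 in knockout and 4.33 ± 0.23 in wildtype (SD over 3 arrays in each genotype), and its highest array was knockout c.

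The 8 members with another set of highest arrays were Ifit2, Oas2, Oasl1, Dhx58, Zbp1, Psmb8, Psmb9 and Ifi203. Of the members with a promoter, 12 of the 13 with an ISRE match and 10 of the 14 without one had the 3 named arrays highest. The median range was 2.53 with a match and 2.32 without. The exception with a match was Ifi203, and those without one were Ifit2, Oasl1, Psmb8 and Psmb9.

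Dim genes vary more between arrays than bright ones on this scale, so each member's range was set beside genes of like level. All probe sets were put into 10 classes by mean level. The members were chosen with earlier results of these data known, so what follows is a description and not a test. In 23 of the 37 members the range exceeded the 95th percentile of its class, against 5.02% of all genes. Of the 19 members in classes 7 to 10, the brighter ones, 16 exceeded it, and of the 6 members in classes 1 to 4, 1 did. The median range was 2.73 for the members and 0.98 for all genes. Among dim members, the range of Zbp1, 3.73, was at percentile 68.8 of its class and that of Mx2, 4.65, at percentile 90.1.

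**Figure D3:**
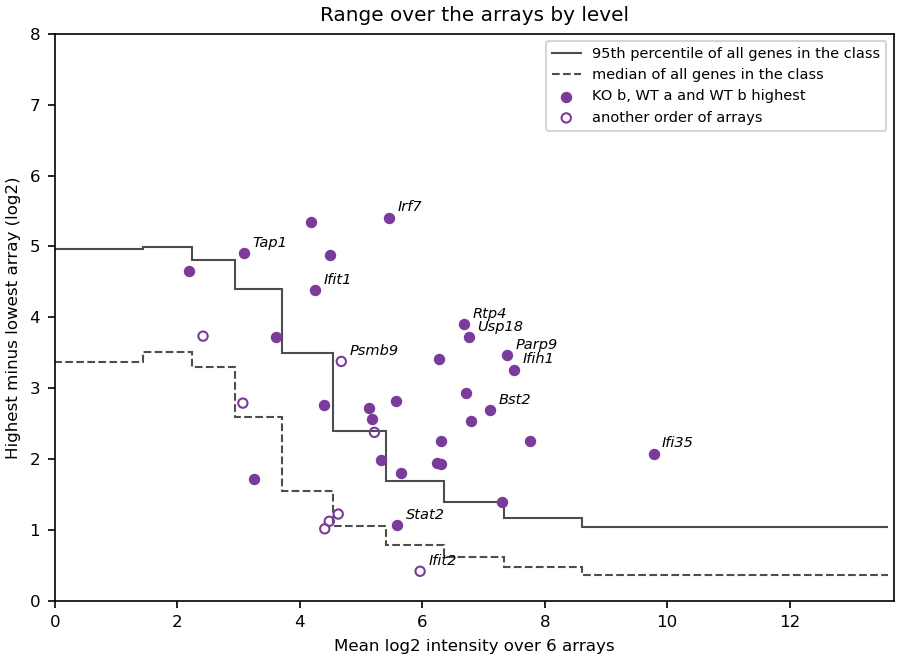
Highest minus lowest array in log2 units against mean log2 intensity for the 37 members, filled where knockout b, wildtype a and wildtype b are highest and open otherwise, with lines for the median and the 95th percentile of all genes in each of 10 level classes. Usp18, Rtp4, Parp9, Ifih1 and Ifi35 lie far above the upper line, and Ifit2 lies below the median line.

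Between genotypes, no member passed the test. Of 45037 probe sets, 14 were called at a limma adjusted p under 0.05, which is 0.0311%, and 0 of the 37 members were among them. At an unadjusted p under 0.05, 3 members were lower in knockout, Gbp2, Psmb9 and Herc6, where 5.51% of all genes were, and 0 were higher. The knockout mean was the lower for 31 of the 37 members and for 52.5% of all genes. The median difference was -0.48 over the members and -0.020 over all genes. Without the intensity trend and robust estimation, limma gave 0 members called, a smallest member adjusted p of 0.847, and 0 members at an unadjusted p under 0.05.

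The count of members with a lower knockout mean moved with the array left out. It was 34 of 37 without knockout b, with a median difference of -1.16, and 35 of 37 without wildtype c, with a median of -1.04. Without knockout a it was 22 of 37, with a median of -0.090, and without knockout c 22 of 37, with a median of -0.042. Without wildtype a it was 28, with a median of -0.25, and without wildtype b 25, with a median of -0.15. In these 6 fits limma called 0 members. At an unadjusted p under 0.05 there were 11 of 37 members without knockout b, where 10.5% of all genes were, and 4 of 37 without wildtype c, where 11% were. There were 2 members without knockout a and 1 without knockout c, where 6.06% and 6.08% of all genes were, and 0 without wildtype a or wildtype b, where 6.45% and 6.72% were. Without knockout b Usp18 differed by -1.88 and Ifit1 by -3.05, against -0.09 and -0.94 without knockout a.

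**Figure D4:**
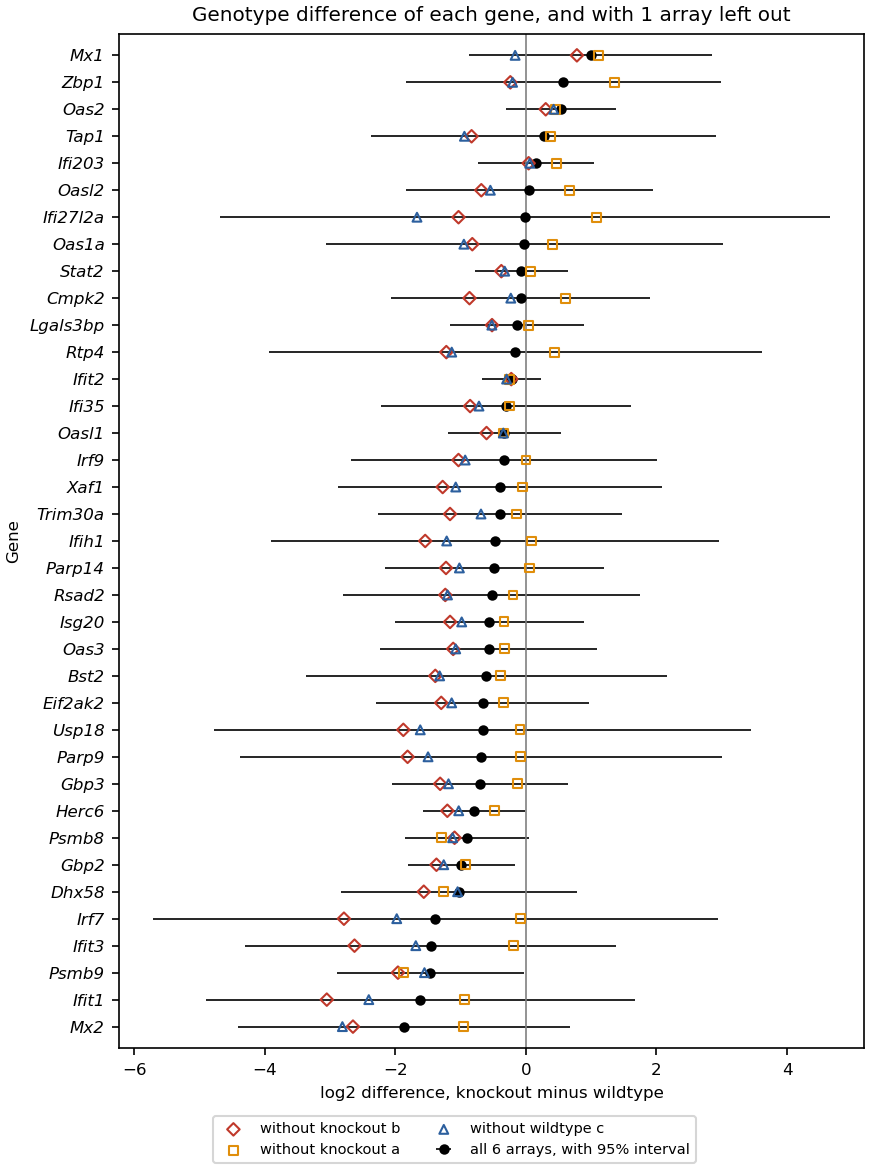
Log2 difference, knockout minus wildtype, of the 37 members with its 95% interval (black) and with knockout b, knockout a or wildtype c left out (open marks). Most black intervals cross 0, those of Gbp2, Psmb9 and Herc6 lie below it, and the marks without knockout b lie to the left of the black points for most genes.

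A total of 15 members had more than 1 probe set, 23 beyond those used. Knockout b, wildtype a and wildtype b were the highest arrays in 11 of these 23. The further probe sets of Eif2ak2, Gbp2, Ifi35, Rsad2, Rtp4 and Trim30a all had that order, as did the second probe set of Zbp1, whose brighter one did not. Those of Cmpk2, Dhx58, Parp14, Psmb8, Stat2, Tap1 and Xaf1 did not have it, and those of Herc6 had it in 1 of 3. By genotype, a further probe set of Herc6 and that of Stat2 had all knockout arrays below all wildtype arrays. They differed by -0.80 and -1.04, with limma adjusted p-values of 0.620 and 0.687. That of Psmb8 had all knockout arrays above, with a difference of 0.47 and a limma adjusted p of 0.924. Knockout was also the higher in those of Parp14 and Xaf1 and in another of Herc6. The 37 members lie on 14 chromosomes. Side by side in RefSeq, counting protein-coding genes and transcribed pseudogenes, were Ifit2 and Ifit3, Oas2 and Oas3, Oasl1 and Oasl2, Rsad2 and Cmpk2, and Tap1 with Psmb8 and with Psmb9. In 5 of these 6 pairs of neighbours 1 gene had the 3 named arrays highest and the other did not, the exception being Rsad2 and Cmpk2, where both did. Pairs with 1 gene between them were alike. Mx1 and Mx2, Gbp2 and Gbp3, and Parp9 and Parp14 all had that order, and neither Psmb8 nor Psmb9 did.

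The rest of the pathway was followed in 4 further lists. Over all genes, 7.77% had knockout b, wildtype a and wildtype b highest. Of 16 interferon genes 10 were measured, all 10 below percentile 50 of all genes by level, 1 had knockout b, wildtype a and wildtype b highest and 0 were called. Ifnb1, interferon beta, was at 4.20, 4.16 and 3.59 in knockout, against 2.65, 2.97 and 4.10 in wildtype, with wildtype a and b the lowest arrays. Ifna1 and Ifnz, the interferon genes of smallest p, differed by -2.65 and 1.52, with limma adjusted p-values of 0.676 and 0.716.

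Of 16 receptor and JAK-STAT genes 15 were measured, 1 had the 3 named arrays highest and 0 were called. The receptor chain Ifnar1 was at 7.15, 7.16 and 7.15 in knockout, against 7.08, 7.12 and 7.46 in wildtype, with wildtype c highest. Ifnar2 was at 7.98, 7.91 and 7.64 in knockout, against 8.09, 8.28 and 7.86 in wildtype. Il10rb, a receptor chain shared by interferon lambda, and Jak1 had the smallest p-values of the list, at differences of -0.43 and -0.24 and limma adjusted p-values of 0.634 and 0.688. The median range of this list was 0.62, against 2.73 for the members.

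Of 18 genes for nucleic acid sensing and IRF factors 15 were measured, 4 had the 3 named arrays highest and 0 were called. Myd88, the adaptor of Toll-like receptors, was at 6.63, 6.73 and 6.46 in knockout, against 7.38, 7.09 and 7.45 in wildtype, without overlap and with a limma adjusted p of 0.4. Ikbke, a kinase that activates IRF factors, differed by -0.62, and Irf1, an early interferon-induced factor, by -0.30, neither with the members' order of arrays. Ddx58, a cytosolic RNA receptor named after its values were seen, did have that order, at 5.38, 7.25 and 5.36 in knockout, against 6.76, 6.85 and 5.04 in wildtype.

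Of 19 genes for class I antigen presentation and other interferon-induced GTPases and membrane proteins, 18 were measured, 11 had the 3 named arrays highest and 1 was called. In 2 of the 18 those arrays stood more than 1 log2 unit above the rest, against 17 of the 37 members. The called gene was Ifi30, a lysosomal thiol reductase, which fell by 1.15 with a limma adjusted p of 0.00414 and did not have that order. Psmb10, the remaining inducible proteasome subunit, differed by -0.43 and did not pass. It had the 3 named arrays highest by only 0.017. B2m, the light chain of class I molecules, was at 10.52, 11.38 and 10.50 in knockout, against 11.25, 11.14 and 10.47 in wildtype, so knockout b stood with wildtype a and b here too, 0.62 above the rest. H2-K1, a class I heavy chain, was at 9.11, 9.49 and 9.08 in knockout, against 9.26, 9.64 and 8.78 in wildtype, with the same 3 arrays highest by 0.15. Irgm1 and Ifitm3, named after their values were seen, separated those arrays by 1.71 and 1.58.

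**Figure D5:**
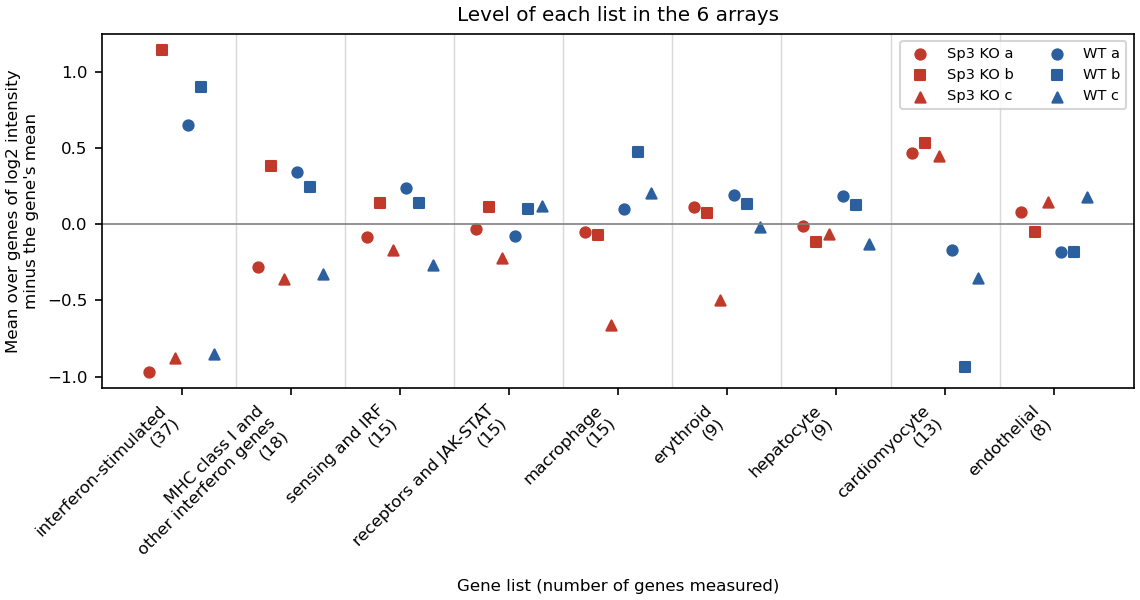
Mean over genes of log2 intensity minus the gene's mean, for 9 gene lists, in the 3 knockout arrays (red) and the 3 wildtype arrays (blue). The members spread from -0.97 to 1.15 with knockout b, wildtype a and wildtype b on top. Over narrower spreads, the sensing and IRF list and the list of MHC class I and other interferon genes have the same arrays on top. The means of the macrophage, hepatocyte, cardiomyocyte and endothelial lists have other orders of arrays.

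Markers of other cell types were set beside the members. Of 15 macrophage and leukocyte markers, 2 had knockout b, wildtype a and wildtype b highest, where 7.77% of all genes did. The level of that list was -0.047, -0.072 and -0.66 in the knockout arrays, against 0.10, 0.47 and 0.21 in the wildtype arrays, with knockout c lowest. By sign 14 of the 15 were lower in knockout, and 0 passed the test. At an unadjusted limma p under 0.05, 8 of the 15 were lower, where 5.51% of all genes were. In 6 of the 15 all knockout arrays lay below all wildtype arrays, against 9.04% of all genes. Of the brightest, Csf1r, a growth factor receptor of macrophages, was at 9.27, 9.19 and 8.74 in knockout, against 9.58, 9.42 and 9.73 in wildtype. Lyz2, a lysozyme, was at 8.88, 8.87 and 7.63 in knockout, against 8.72, 9.31 and 8.56 in wildtype. Their part in the values of the members was not tested.

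Of 12 lymphoid and plasmacytoid dendritic markers other than Bst2, 10 were measured, all below percentile 50 of all genes by level. Their list level was -0.58, 0.43 and -0.12 in the knockout arrays, against -0.15, 0.51 and -0.091 in the wildtype arrays, with wildtype b and knockout b highest and knockout a lowest. The single marker with the 3 named arrays highest was Cd8a, a T cell coreceptor named after its values were seen, at 2.72, 5.62 and 3.05 in knockout, against 5.32, 5.06 and 4.56 in wildtype. Of the brightest, Cd79b, part of the B cell receptor, was at 4.03, 4.82 and 4.52 in knockout, against 5.18, 5.01 and 4.93 in wildtype. Nkg7, a granule protein of killer cells, was at 4.63, 4.75 and 4.03 in knockout, against 4.61, 4.76 and 4.66 in wildtype. Siglech, a receptor of plasmacytoid dendritic cells and the dimmest of these markers, also named after its values were seen, was at 0.29, 0.68 and 1.59 in knockout, against 0.83, 0.97 and 1.28 in wildtype, with knockout c highest. The part of these cells in the members' values was not tested. The erythroid markers had the order in 6 of 9 measured genes, at smaller distances. Their level was 0.11, 0.075 and -0.50 in the knockout arrays, against 0.19, 0.14 and -0.015 in the wildtype arrays, as a mean over genes. As a median it was -0.012, 0.20 and -0.57 in the knockout arrays, against 0.26, 0.26 and -0.011 in the wildtype arrays, so knockout b, wildtype a and wildtype b were highest by the median. Hba-a1, an alpha globin gene named after its values were seen, had 1 probe set annotated to it alone. That probe set was dim, at percentile 20.1, so it may not give the level of the gene. It had knockout a highest, at 3.92, 1.61 and 3.57 in knockout, against 2.98, 0.90 and 2.92 in wildtype. The part of red cells in the members' values was not tested. The brightest, Hbb-y and Hbb-bh1, differed by -0.01 and 0.052. In the hepatocyte list, led by Afp and Alb, 1 of 9 measured genes had the order. None of the 13 cardiomyocyte markers, led by Actc1 and Tnni1, and none of the 8 endothelial markers, led by Vwf and Cldn5, had it. Of all genes 7.77% had it, and lists this short cannot tell these low counts from that share. The cardiomyocyte level was 0.47, 0.54 and 0.45 in the knockout arrays, against -0.17, -0.94 and -0.35 in the wildtype arrays, higher in all knockout arrays, whereas the members' level was not.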

How the data were processed

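The deposited table holds intensities on a linear scale, judged from the values. GCOS and RMA appear in the submitters' processing notes, without versions, and the step that made the deposited intensities is not known. Per the labels, each array was counted as 1 sample, lettered a to c, and pooling in knockout a, whose note has the plural, is not settled. From the deposited intensities log2 was taken, with no other normalization, and 64 control probe sets were left out of 45101. Probe sets were named through the platform annotation, 34945 with 1 gene, 932 with several and 9160 with none, and those with several were not used. The genotype comparison was fitted in R 4.3.3 with limma 3.58.1, lmFit and eBayes with an intensity trend and robust estimation, on 45037 probe sets and all 6 arrays, two-sided, with Benjamini-Hochberg adjustment over all probe sets and a threshold of 0.05. Of 10 level classes, the 3 dimmest had median residual SDs of 1.27, 1.39 and 1.28 and the brightest 0.13. The fit was tested on simulated data with known changes. Every p-value reflects only how these samples vary, since the labels do not tell litters, and 3 arrays per genotype limit the precision.

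The members, the other lists and the trend fit were chosen with earlier results of these data known. Every member was named by role, with values in each array for the signalling, RNA-binding and antigen processing genes and for members among the 10 widest ranges or 5 smallest p-values. Of the other pathway lists the 2 of smallest p and genes of defined roles were named, and of each marker list the 2 of highest mean, with exceptions said to be named after their values were seen. Promoters were named by ISRE match and range. Arrays of the 2 genotypes that share a letter deviated together by correlations of -0.0070 for a, 0.050 for b and 0.080 for c, so the letters were not taken as pairs. Alternatives were the trend and robust estimation dropped together, quantile normalization, median centring, dim probe sets left out, array weights and the letter as a block. Further alternatives were 16 intensity units added before log2, averaging over all probe sets per gene, and each array left out.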

Additional observations from a re-analysis of the deposited data

How the results depend on the processing

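In each alternative 0 of the members were called. The smallest member adjusted p from limma was 0.847 without the trend and robust estimation, 0.42 with array weights and 0.163 with the replicate block. With an array left out limma gave from 0.36 to 0.941. The median difference of the members was between -0.77 and -0.30 when no array was left out, and between -1.16 and -0.042 when 1 was. The count with knockout b, wildtype a and wildtype b highest was 29 after quantile normalization, 30 after median centring, 30 with the mean of all probe sets and 21 of the 25 that remained when dim probe sets were left out. Over all 45037 probe sets, 14 were called, against 0 without the trend and robust estimation, 25 with array weights and 258 with the replicate block. With an array left out 3 to 24 were called, 3 without knockout a and 24 without wildtype c. Without the trend and robust estimation 2699 probe sets had an unadjusted p under 0.05. With the letter as a block no member's call changed. Arrays b and c deviated most like the array of their own letter, at correlations of 0.050 and 0.080. Arrays a did not, at -0.0070. Whether the letters mark anything shared was not tested. Among single members, Oasl2 differed by -0.0071 after quantile normalization, -0.021 after median centring and -0.23 with array weights. With an array left out, differences below 0 over all arrays also took the other sign, running from -0.38 to 0.13 for Stat2, -1.03 to 0.033 for Irf9, -0.95 to 0.50 for Oas1a, -0.86 to 0.61 for Cmpk2, -1.54 to 0.089 for Ifih1, -1.67 to 1.09 for Ifi27l2a, -1.22 to 0.44 for Rtp4, -1.22 to 0.058 for Parp14, -0.52 to 0.12 for Lgals3bp, -0.85 to 0.18 for Ifi35, -1.16 to 0.10 for Trim30a and -1.27 to 0.14 for Xaf1. Differences above 0 over all arrays did so for 5 members, running from -0.68 to 0.67 for Oasl2, -0.24 to 1.36 for Zbp1, -0.94 to 1.27 for Tap1, -0.16 to 1.61 for Mx1 and -0.041 to 0.47 for Ifi203. The cause of these changes was not tested. The design cannot separate effects of litter or handling, which the labels do not give, from those of the single sample. Many members, dim and bright, had wide spreads, with a median residual SD of 1.13 over the members and 0.34 over all genes.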

Other observations

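Beside 17 members, 66 other genes had knockout b, wildtype a and wildtype b highest by more than 1 log2 unit, so the members were 20.5% of these 83 genes, while the 17 were 45.9% of the measured members. The genes named here were chosen after their values were seen. Several are known as interferon-induced: Ifi27, a small mitochondrial protein, separated the arrays by 1.94, Slfn5, of the Schlafen family, by 1.93, Parp12, an ADP-ribosyltransferase, by 1.58, and Dtx3l, the ubiquitin ligase that partners Parp9, by 1.57. Gm9706, which RefSeq lists as a pseudogene and which shares the annotation of the Isg15 probe set, was at -0.31, 5.92 and -0.40 in knockout and 5.58, 6.01 and -0.090 in wildtype, 5.67 between the high and the low arrays, the widest such distance of all genes. Its part in the Isg15 signal cannot be told apart here. Other genes with wide distances were not interferon genes by name, such as Tmem87a at 5.19 and Krtap19-3 at 3.15. Their mean log2 intensities were 4.12 and 1.04.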
